A study of Mus musculus with 12 samples.

Results

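Cav1 and Cav2, the neighbouring genes of caveolin 1 and caveolin 2, and the genes Tes, Met, Capza2 and St7 around them on mouse chromosome 6 were examined in dendritic cells with and without the genome-organizing protein CTCF. The 6 genes were found by symbol in the gene tables, where each matched 1 of 55335 rows. They were chosen by the count of Cav1 in the unstimulated libraries, which was much lower in CTCF-deficient cells, so the comparison of the unstimulated genotypes, KO against WT, is given for them as a description without a test. The comparison of the stimulated genotypes uses libraries that the choice did not use. The LPS comparisons share the unstimulated libraries with it, so for Cav1 they are also given without a test.

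RNA was sequenced from BMDCs, dendritic cells grown for 6 days with GM-CSF from the bone marrow of C57BL/6 mice, in 4 groups of 3 libraries. Per the study's methods, the cells were picked for CD11c, a surface protein of dendritic cells, with magnetic beads before stimulation. WT cells carried CreER and KO cells carried CreER with CTCF fl/fl, and both were left unstimulated. WTL and KOL were the same 2 genotypes given LPS, a bacterial cell wall component that activates TLR4, at 100 ng/ml for 3 h. CreER is a tamoxifen-inducible recombinase, here driven from the Rosa26 locus and so present in all cells of all 4 groups, and 4-OH tamoxifen was given once, as culture began, to delete Ctcf. The study's text ties the drug to the KO cultures, and it is not clear that WT cultures received it, so its own effect cannot be told apart from the loss of CTCF. The study used male and female mice of 8 to 12 weeks, and the labels do not say which animals or how many gave each library, so p-values measure the spread between these libraries.

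Caveolins are hairpin membrane proteins that, together with cavins, shape caveolae, the flask-like pits of the plasma membrane. Caveolin 1 is the main structural protein of caveolae outside muscle, and caveolin 2 assembles with it. Endothelial cells, adipocytes and fibroblasts are the classic sites of Cav1 expression. Of the neighbours, Met encodes the receptor tyrosine kinase for HGF, Tes encodes testin, a LIM-domain protein of focal adhesions, Capza2 encodes an alpha subunit of the actin capping protein CapZ, and St7 encodes a transmembrane protein named as a suppressor of tumorigenicity.

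The 6 genes are all transcribed from the plus strand of chromosome 6 (mm10, GENCODE M21). Tes spans chr6:17065149-17105828, Cav2 chr6:17281185-17289115, and Cav1 chr6:17306335-17341452. Met spans chr6:17463800-17573980, Capza2 chr6:17636234-17666972, and St7 chr6:17692933-17943025. The start of Cav2 lies 25.2 kb before that of Cav1, and the starts of Met, Capza2 and St7 lie 157.5, 329.9 and 386.6 kb after it. Gm15581, an antisense gene that overlaps both caveolin genes, reached at most 3.25 normalized counts in any library, so it could add little to either.

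The promoters of the 3 genes that fell in KOL against WTL are shown, since these 3 moved the same way. They run from 250 bases before the RefSeq start to 50 bases after it (build GRCm38.p6, plus strand), at chr6:17306085-17306384 for Cav1, chr6:17280935-17281234 for Cav2 and chr6:17463707-17464006 for Met. Capitals mark a match to the NF-kB motif.
Cav1: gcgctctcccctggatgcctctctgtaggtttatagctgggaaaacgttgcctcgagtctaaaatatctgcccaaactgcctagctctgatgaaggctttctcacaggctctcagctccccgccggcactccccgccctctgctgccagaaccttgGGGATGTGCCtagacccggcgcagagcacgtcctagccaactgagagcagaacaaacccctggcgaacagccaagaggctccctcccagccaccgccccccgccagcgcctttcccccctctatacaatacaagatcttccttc
Cav2: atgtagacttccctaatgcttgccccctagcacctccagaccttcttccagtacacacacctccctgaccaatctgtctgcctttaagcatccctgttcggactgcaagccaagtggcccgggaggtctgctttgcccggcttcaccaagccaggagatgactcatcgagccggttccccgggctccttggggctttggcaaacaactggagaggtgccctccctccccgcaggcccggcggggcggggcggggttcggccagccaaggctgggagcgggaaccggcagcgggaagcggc
Met: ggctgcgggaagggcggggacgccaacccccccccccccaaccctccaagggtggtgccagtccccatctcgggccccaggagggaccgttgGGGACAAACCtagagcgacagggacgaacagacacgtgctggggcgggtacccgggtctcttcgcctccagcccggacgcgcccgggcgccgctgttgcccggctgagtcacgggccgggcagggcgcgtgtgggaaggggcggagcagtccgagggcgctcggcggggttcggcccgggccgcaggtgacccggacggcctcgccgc

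The letters of 3 motifs were searched on both strands in all 9 promoters that RefSeq gives for the 6 genes, namely a 10-letter NF-kB motif, TTCNNNGAA for STAT proteins and a core CTCF motif. The NF-kB letters began 94 bases before the Cav1 start and 158 bases before the Met start on the plus strand, and 7 bases after the Capza2 start on the minus strand. Of all 32851 promoters of the same length, 20.7% held these letters. The STAT letters, held by 8.30% of all promoters, and the CTCF letters, held by 8.61%, were in none of the 9 windows. RefSeq gives a further Cav1 start, whose window (chr6:17307390-17307689) held 16 CpG pairs and none of the 3 motifs. The Cav1 window shown held 13 CpG pairs and the Cav2 window 16, against 34 for Met and 38 for Capza2, and the median promoter held 7.

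The libraries held 12769773 to 16586334 expected counts each. The level of Ctcf, the targeted gene, was 1004 ± 40.8 normalized counts in WT and 549 ± 29.0 in KO (SD, n = 3 each), and 816 ± 70.4 in WTL and 540 ± 20.4 in KOL, lower in every library of the CTCF-deficient group in each pair. A normalized count is corrected for the effective size of its library, and such counts compare a gene between libraries but not genes with each other. Markers of dendritic cells were present, with 6 of 7 at a TPM (a level per length, scaled to a fixed sum per library) of at least 1 in every library. Their summed level was 10501 to 11070 TPM in WT, 7197 to 7505 in KO, 10179 to 14027 in WTL and 10329 to 15029 in KOL. Itgax, the gene of CD11c, was higher in KO (598.37 to 612.39 TPM) than in WT (356.02 to 374.2), while the other members were lower. All 6 markers of macrophages and monocytes and 2 of 6 of neutrophils were also at 1 TPM or more in every library. Of the former, Ly6c2 (221.15 to 228.33 TPM in KO, 66.1 to 73.06 in WT) and Csf1r were higher in KO and the rest lower. The 5 markers of activated dendritic cells, among them Ccr7 and Ccl22, summed to 7666 to 7786 TPM in WT, 3565 to 3969 in KO, 17278 to 20785 in WTL and 15030 to 16532 in KOL. The sum, most of it Ccl17, was lower in KO and KOL and higher with LPS, but the members differed. Fscn1 was higher in KO (219.84 to 241.93 TPM) than in WT (126.48 to 140.46) and higher in KOL than in WTL, and Ccr7, Cd83 and Ccl22 overlapped between KOL and WTL. The part of these lists in the results below was not tested. In bulk libraries, fewer cells that express a gene and less RNA per cell cannot be told apart.

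Cav1 was low in CTCF-deficient cells and higher with LPS in both genotypes. In the 3 WT libraries its normalized count was 1248, 1255 and 1261, and in the 3 KO libraries it was 17.0, 26.9 and 21.3. With LPS it reached 15048, 12084 and 10830 in the WTL libraries. The KOL libraries held 874, 1019 and 951. No 2 groups overlapped, and the stimulated KOL cells held less Cav1 than WT cells that had never met LPS.

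**Figure D1:**
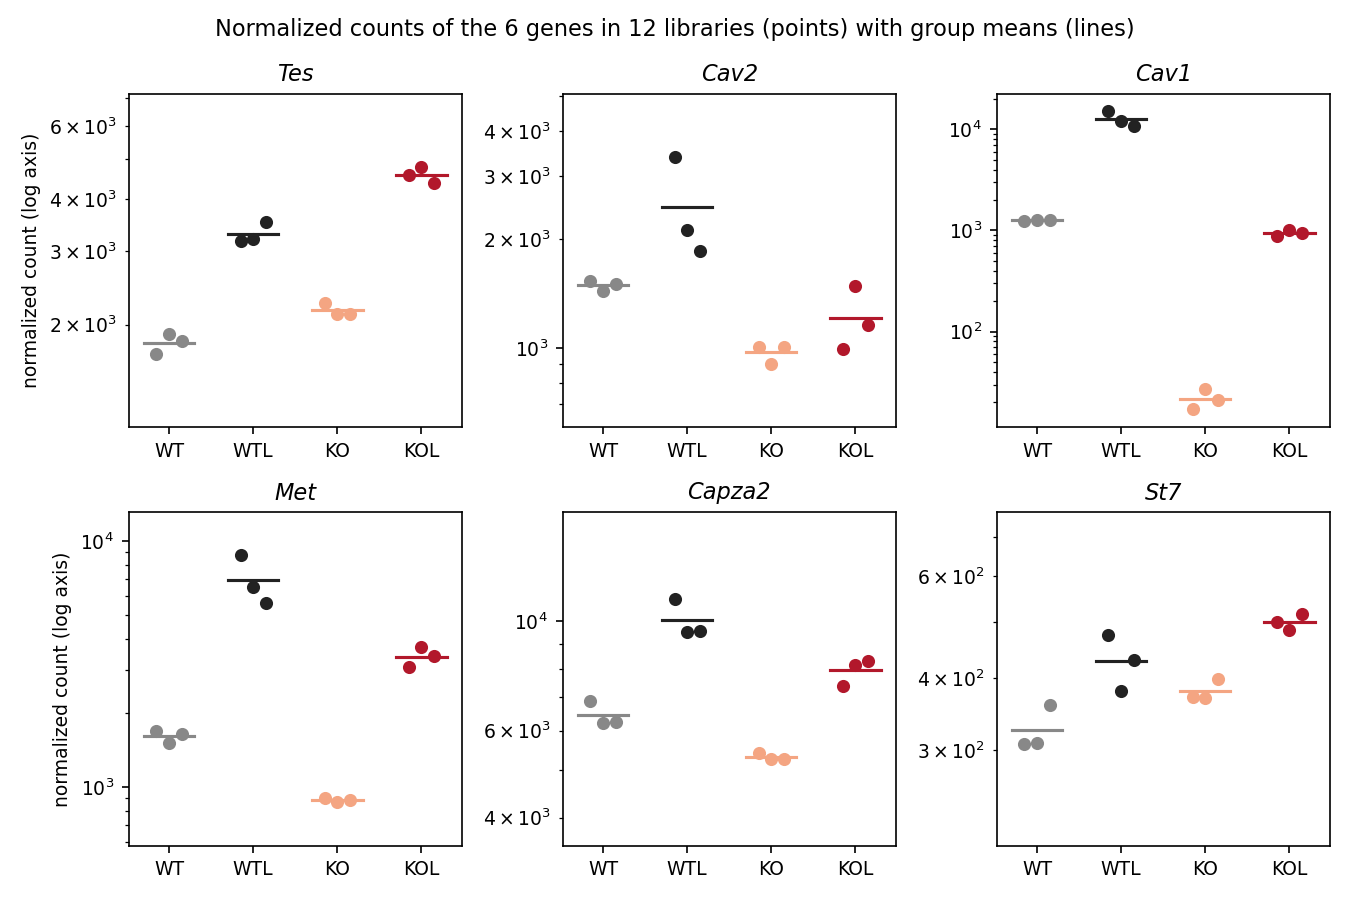
Normalized counts (log axis) of the 6 genes, with the 12 libraries as points and the mean of the 3 libraries of each group (WT, WTL, KO, KOL) as a line. Cav1 spans from 17.0 in a KO library to 15048 in a WTL library, whereas each St7 library lies between 308 and 516.

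In KOL against WTL, Cav1 fell by 3.74 on the log2 scale (SE 0.12, adjusted p = 3.0e-11 by edgeR's quasi-likelihood test), which is 13.3-fold. KOL held 7.49% of the mean WTL count. For KO against WT, the comparison that chose the gene, the fitted log2 fold change was -5.85 (SE 0.16), and KO held 1.73% of the mean WT count, on 19 to 28 raw expected counts per KO library. A TPM of at least 1 was still recorded in every KO library (1.06 to 1.42 TPM, against 71.3 to 78.0 in WT).

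As a description, Cav1 was 3.33 higher with LPS on the log2 scale in WT cells (SE 0.12), or 10.1-fold, and 5.44 higher in KO cells (SE 0.17), or 43.5-fold. The KO and WT libraries in these 2 comparisons are those that chose Cav1. The difference between the log2 responses, given without a test because it contains that comparison, was 2.11 (SE 0.21) in KO minus WT, and it was 1.03 to 1.88 on TPM with a pseudocount. On the count scale the order was the opposite, since LPS added 11399 normalized counts to the mean in WT cells and 926 in KO cells.

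Endothelial cells, fibroblasts and adipocytes express Cav1, and some but not all of their markers were near 0. Of the endothelial markers, Cdh5 reached at most 0.27 TPM, Tek 0.02 and Emcn 0.07 in any library, and Pecam1 reached 1.04. The 7 endothelial markers summed to 32.0 to 41.2 TPM in WT, 22.3 to 27.8 in WTL, 62.3 to 63.9 in KO and 35.0 to 47.4 in KOL. Vwf was at 14.89 to 45.84 TPM over the 12 libraries, Egfl7 reached 19.87 TPM in KO and Kdr 9.41 in KOL, and the part of these genes in the results was not tested. The 7 fibroblast markers summed to 0.56 to 0.95 TPM in WT, 2.22 to 6.04 in WTL, 4.58 to 4.76 in KO and 2.08 to 4.89 in KOL, with Pdgfrb at up to 4.55 TPM and Col1a1 at up to 0.54. All 4 adipocyte markers were under 1 TPM in every library, with sums of at most 0.61, and Lep was at 0 in all 12.

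Cav2 followed Cav1 in direction with a much smaller change. Its normalized count was 1529, 1437 and 1505 in WT and 1008, 903 and 1008 in KO. With LPS the WTL libraries held 3388, 2126 and 1863, and the KOL libraries 996, 1486 and 1160. Replicate 1 stood well above the other WTL libraries, and KOL overlapped with KO.

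Between the stimulated genotypes Cav2 fell by 1.02 on the log2 scale (SE 0.18, adjusted p = 4.2e-04, edgeR), or 2.02-fold, and without WTL replicate 1 the value was -0.72. KO against WT gave -0.61 (SE 0.18) as a description. With LPS, WT cells gave a rise of 0.72 (SE 0.18, adjusted p = 0.0034), past the test but under the 2-fold cutoff, and 0.42 (adjusted p = 0.011) without WTL replicate 1. In KO cells the LPS difference in Cav2 was 0.32 (95% interval -0.08 to 0.71, adjusted p = 0.14), and its sign turned to -0.15 on TPM.

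Levels of the 2 caveolin genes can be set side by side per length as TPM. Cav1 TPM divided by Cav2 TPM was 1.24 ± 0.079 in WT and 8.23 ± 0.47 in WTL (SD, n = 3 each). The ratio was 0.034 ± 0.0035 in KO and 1.08 ± 0.10 in KOL. The 2 genes were thus at similar levels in WT and KOL, while Cav1 was the higher of the 2 in WTL and far the lower in KO.

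Met, the HGF receptor gene, rose strongly with LPS. Its normalized count was 1692, 1518 and 1639 in WT and 8754, 6485 and 5616 in WTL. It was 899, 867 and 885 in KO and 3066, 3708 and 3413 in KOL. The 4 groups did not overlap, and each CTCF-deficient group lay under its WT counterpart.

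LPS raised Met by 2.10 (SE 0.13, adjusted p = 4.7e-09, edgeR) on the log2 scale in WT cells, or 4.30-fold. In KO cells it raised Met by 1.94 (SE 0.13, adjusted p = 1.1e-08), or 3.84-fold. KOL against WTL was a fall by 1.03 (SE 0.13, adjusted p = 1.3e-05), and KO against WT was -0.87 (SE 0.13) as a description. The difference between the 2 LPS responses, also a description, was -0.16 (95% interval -0.55 to 0.23). KOL held 48.8% of the WTL level of Met and 49.4% of that of Cav2, against 7.49% for Cav1.

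Tes went the other way from Cav1 between genotypes. Its normalized count was 1699, 1902 and 1830 in WT and 2251, 2115 and 2121 in KO. With LPS the WTL libraries held 3179, 3215 and 3533, and the KOL libraries 4580, 4792 and 4378. Each CTCF-deficient group lay above its WT counterpart with no overlap. KOL against WTL was a rise of 0.47 (SE 0.07, adjusted p = 8.4e-05, edgeR) on the log2 scale, past the test but under the 1.5-fold cutoff, and KO against WT was 0.26 (SE 0.07) as a description. LPS raised Tes by 0.87 (SE 0.07, adjusted p = 9.2e-08) in WT cells, under the 2-fold cutoff, and by 1.08 (SE 0.07, adjusted p = 6.9e-09) in KO cells, just over it. On TPM the rise in KO cells was 0.43 and no longer passed the cutoff.

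Capza2, the most abundant of the 6 in every group but WTL, shifted little. Its normalized count was 6889, 6212 and 6244 in WT and 5396, 5262 and 5264 in KO. With LPS the WTL libraries held 11077, 9495 and 9537, and the KOL libraries 7398, 8155 and 8278. KOL was 0.34 lower than WTL on the log2 scale (SE 0.08, adjusted p = 0.0025, edgeR), past the test but under the fold cutoff, and KO against WT was -0.28 (SE 0.08) as a description. LPS gave 0.64 in WT cells (SE 0.08, adjusted p = 5.8e-06) and 0.58 in KO cells (SE 0.08, adjusted p = 1.2e-05), both under the 2-fold cutoff.

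St7 had the lowest TPM of the 6 in WT and in both stimulated groups. Its normalized count was 308, 309 and 359 in WT, 371, 370 and 398 in KO, 473, 380 and 430 in WTL, and 499, 484 and 516 in KOL. KOL lay above WTL without overlap, with a log2 difference of 0.23 (95% interval 0.04 to 0.42, adjusted p = 0.051, edgeR). The same difference was 0.44 (adjusted p = 0.0081, limma) on TPM and 0.30 (adjusted p = 0.013, edgeR) without WTL replicate 1. KO against WT was 0.22 (SE 0.09) as a description. LPS gave 0.39 in WT cells (adjusted p = 0.0017) and 0.40 in KO cells (adjusted p = 0.0012), both under the fold cutoff.

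For St7 the 2 units differ because the length that RSEM weights by isoform was shorter in CTCF-deficient libraries. It was 1781 to 2149 bases in WT and 1606 to 1763 in KO, and 1691 to 1942 in WTL and 1477 to 1644 in KOL. The groups did not overlap within either treatment. No test was run, since 3 libraries against 3 cannot go below an exact permutation p of 0.1. The share of all genes whose lengths separate in this way was not counted. The corresponding lengths of Cav2, Met and Capza2 overlapped between genotypes, and that of Cav1 ranged from 1436 to 2522 bases among KO libraries, where it rested on few reads. That of Tes was longer in KOL (2229 to 2311 bases) than in WTL (2143 to 2200) and overlapped between KO and WT.

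Counting over the 6 genes, 3 were called down in KOL against WTL (Cav1, Cav2 and Met) and none up, at an adjusted p under 0.05 and a fold over 1.5. Of all 14008 genes tested, 12.5% were called down and 12.5% up. The median log2 difference of the 6 was -0.68, beside -0.03 for all genes, with 4 of the 6 negative and 2 positive. The count and the median include Cav1, whose low level in KO chose the genes. Of the 5 genes other than Cav1, 2 were called down in KOL against WTL and none up. For LPS in WT cells, 1 of the 5 genes other than Cav1 was called up at a fold over 2 (Met), against 12.6% of all genes. For LPS in KO cells, 2 of the 5 were called up (Met and Tes), against 15.1% of all genes. Without the fold cutoffs, 5 of these 5 were past the adjusted p in WTL against WT, where 60.2% of all genes were, and 4 of the 5 in KOL against KO, where 67.5% were. In KOL against WTL, 5 of the 6 were, and 4 of the 5 other than Cav1, where 44.7% of all genes were. In KO against WT, which chose the genes, 34.5% of all genes were called at a fold over 1.3, 17.3% up and 17.2% down.

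**Figure D2:**
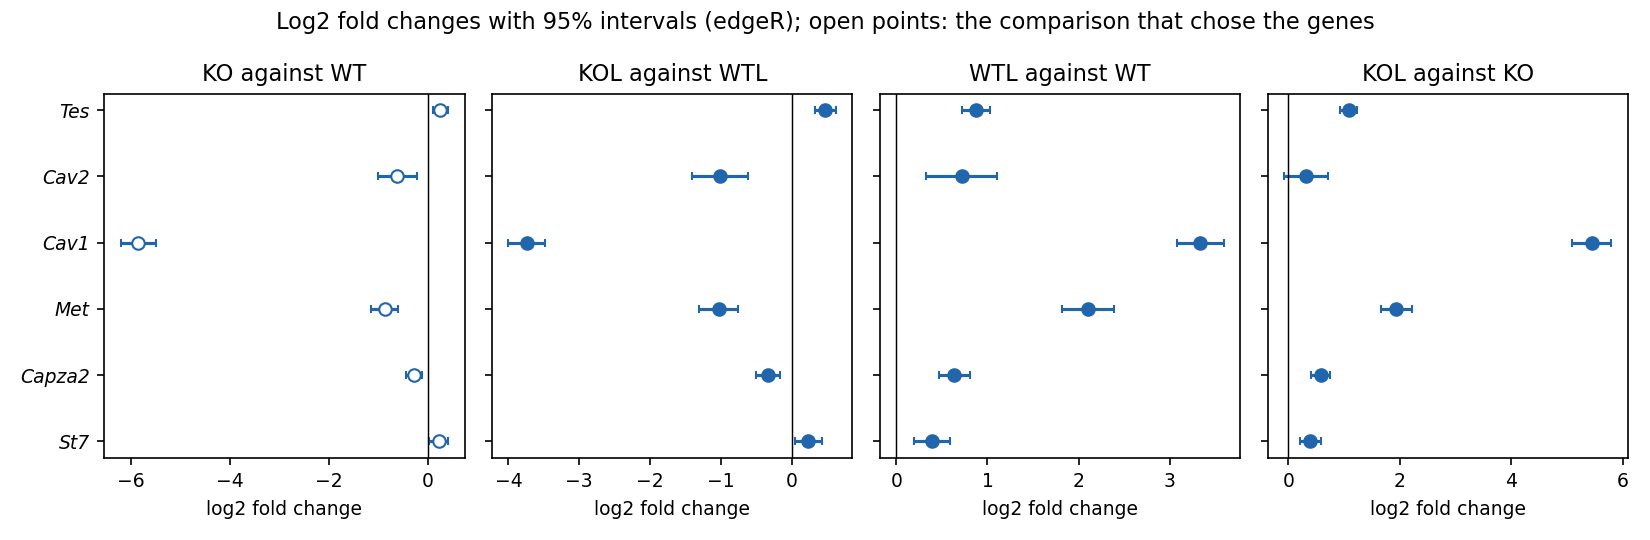
Log2 fold changes from edgeR with 95% intervals for the 6 genes in 4 comparisons, each panel with its own axis and a line at 0. Open points mark KO against WT, which chose the genes, and filled points show Cav1 at -3.74 in KOL against WTL and at 3.33 and 5.44 with LPS, farther from 0 than the other 5 in each panel.

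The LPS comparisons depend on how libraries are scaled. The median log2 change over all genes was -0.02 in WTL against WT with TMM scaling and -0.44 on TPM, and it was -0.02 and -0.38 in KOL against KO, so LPS values of about that size depend on the scaling. On TPM, the LPS differences of Cav2, Capza2 and St7 in WT cells were 0.12, 0.12 and 0.003 on the log2 scale and none of them passed the test. In KO cells they were -0.15 for Cav2 (adjusted p = 0.52, limma), 0.055 for Capza2 (adjusted p = 0.68) and 0.075 for St7 (adjusted p = 0.55). The LPS differences of Met and Tes stayed past the test in both genotypes.

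The order of the 6 genes by TPM, a level per length, differed between groups. In WT it ran from Capza2 (287 ± 26.4 TPM, SD, n = 3) through Tes (92.2 ± 5.13), Cav1 (73.8 ± 3.59), Cav2 (59.8 ± 1.73) and Met (25.0 ± 2.51) to St7 (18.0 ± 0.82), with no overlap between neighbours in the order. In WTL, Cav1 stood first at 549 ± 162 TPM, followed by Capza2 at 314 ± 54.8 and Tes at 114 ± 11.99, while Met at 73.3 ± 19.8 and Cav2 at 67.6 ± 24.0 overlapped. In KO, Cav1 stood last at 1.24 ± 0.18 TPM, under Met at 13.4 ± 1.42, St7 at 23.4 ± 1.49 and Cav2 at 36.6 ± 1.64. In KOL, Cav1 at 36.2 ± 10.1 TPM, Met at 34.9 ± 3.54 and Cav2 at 33.3 ± 7.67 overlapped, over St7 at 24.8 ± 2.33. Among all genes by mean TPM, Cav1 ranked 1640 in WT, 280 in WTL, 12066 in KO and 2754 in KOL. Cav1 made up 47.9% ± 3.73 of the summed TPM of the 6 genes in WTL and 0.30% ± 0.040 in KO.

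The window within 1 Mb of the 6 genes (chr6:16065149-18943025) held 48 other annotated genes, of which 5 had enough counts to be tested. Of the others, 1 had no row and the rest never exceeded 15.01 expected counts in a library, with 22 at 0 throughout. Among those not tested were the protein-coding genes Wnt2, a secreted ligand, Cftr, the chloride channel of cystic fibrosis, Asz1, a germ cell gene, and Ankrd7. In KOL against WTL, 1 of the 5 was called up and 2 down, where 12.5% of all genes were called in each direction. In KO against WT, 2 of the 5 were called up and 3 down, where 17.3% and 17.2% of all genes were.

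Tfec, a transcription factor of the MiT family, starts 408 kb before Cav1 on the opposite strand. It was higher in KO (1675 ± 47.7 normalized counts) than in WT (1033 ± 22.9), a rise of 0.70 on the log2 scale (SE 0.10, adjusted p = 4.7e-05, edgeR). In WTL it was 983 ± 105 and in KOL 923 ± 134, and these overlapped. The LPS response of Tfec in KO minus that in WT was -0.79 (SE 0.14, adjusted p = 0.0016 for the interaction), a test that 17.4% of all genes passed. Lsm8, which encodes a subunit of a U6 RNA-binding ring, starts 1542 kb after Cav1 and fell in KO by 0.52 (SE 0.09, adjusted p = 2.4e-04). Its value in KOL against WTL was -0.54 (SE 0.09, adjusted p = 1.8e-04), past the test but just under the fold cutoff.

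Gm20186, a lincRNA that lies beside Lsm8 on the opposite strand, had a pattern like that of Cav1 at a low level. It averaged 50.9 ± 2.496 normalized counts in WT, 166 ± 22.3 in WTL, 8.04 ± 1.09 in KO and 24.8 ± 5.87 in KOL. It fell in KO by 2.64 on the log2 scale (SE 0.23, adjusted p = 3.9e-07, edgeR) and in KOL against WTL by 2.74 (SE 0.18, adjusted p = 2.5e-08). LPS raised it by 1.70 (SE 0.16, adjusted p = 3.8e-07) in WT cells and by 1.604 (SE 0.26, adjusted p = 9.4e-05) in KO cells.

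Gm43844, a transcript model of open status inside the body of St7 on the same strand, averaged 55.7 ± 4.84 normalized counts in WT and 6.15 ± 2.25 in KO. It fell by 3.15 (SE 0.46, adjusted p = 6.5e-05, edgeR) there. In KOL against WTL it fell by 2.94 (SE 0.46, adjusted p = 1.3e-04), while St7 itself was higher in both CTCF-deficient groups. Reads from unspliced St7 RNA cannot be told apart from its own. Cttnbp2, which encodes a cortactin-binding protein, was at 0 counts in all WT libraries and averaged 9.97 ± 3.88 normalized counts in KO, at least 3.80-fold higher than the limit of 3 counts per library. It rose with LPS in KO cells to 48.9 ± 12.9 (log2 2.28, SE 0.35, adjusted p = 8.8e-05), whereas WTL held 1 count in a single library.

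**Figure D3:**
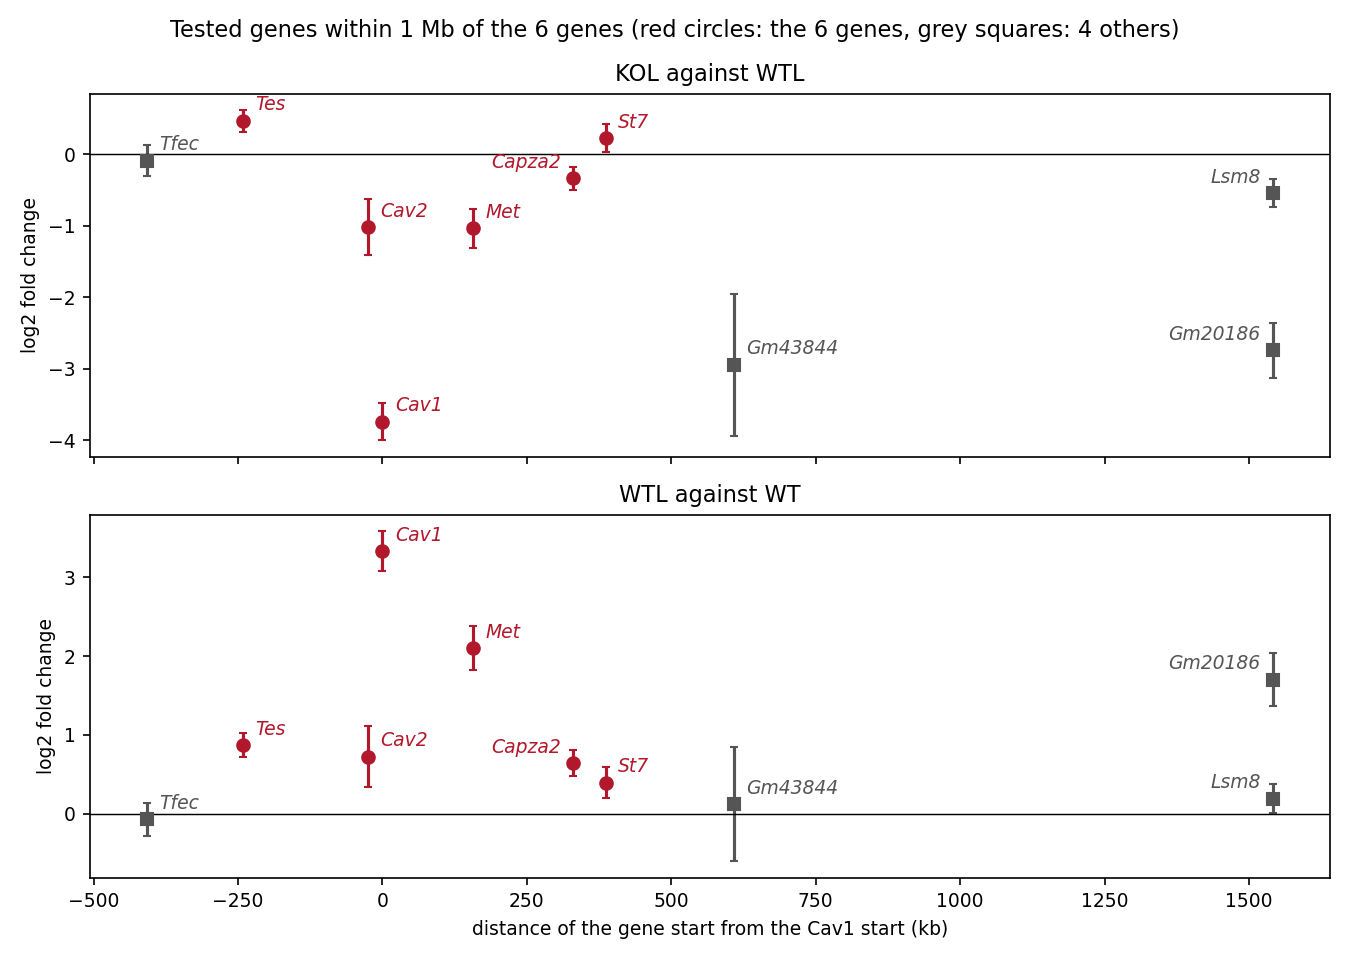
Log2 fold change (edgeR, with 95% intervals) against the distance of each gene's start from the Cav1 start in kb, for KOL against WTL (upper) and WTL against WT (lower). Red circles are the 6 genes and grey squares 4 other tested genes of the window, and Cttnbp2, with no more than 1 count in any WT or WTL library, is left out. In the upper panel the 6 genes, in chromosome order, stand at 0.47 (Tes), -1.02 (Cav2), -3.74 (Cav1), -1.03 (Met), -0.34 (Capza2) and 0.23 (St7).

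Cavin1, the cavin that caveola formation needs alongside caveolin 1, differed in the opposite direction to Cav1 between genotypes, while both were higher with LPS. Its normalized count was 40.5 ± 3.93 in WT and 1533 ± 17.2 in KO, and 173 ± 39.8 in WTL and 3349 ± 584 in KOL (SD, n = 3 each). It rose by 5.24 on the log2 scale (SE 0.18, adjusted p = 2.6e-11) in KO against WT and by 4.27 (SE 0.15, adjusted p = 9.0e-11, edgeR) in KOL against WTL. LPS raised it by 2.10 in WT cells (SE 0.19, adjusted p = 3.2e-07) and by 1.13 in KO cells (SE 0.13, adjusted p = 2.8e-06). Thus WTL cells held much Cav1 and little Cavin1, and KO cells the reverse. In the KOL libraries both were present, with means of 36.2 TPM for Cav1 and 67.2 TPM for Cavin1. Whether the same cells held both cannot be told from bulk libraries.

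Of the 18 genes of the caveola list, 12 were tested. In KOL against WTL, 2 rose (Cavin1 and Pacsin1) and 3 fell (Cav1, Cav2 and Ehd2), against 12.5% of all genes in each direction, and the median was -0.02, beside -0.03 for all genes. Pacsin1, a membrane-bending protein of the syndapin family, rose by 0.62 (SE 0.16, adjusted p = 0.0071, edgeR). Ehd2, an ATPase of the caveola neck, was at a low level in all 4 groups and lower in the CTCF-deficient ones. Its mean was 9.44 ± 5.11 normalized counts in WT, 0.92 ± 0.90 in KO, 11.4 ± 3.20 in WTL and 0.75 ± 0.65 in KOL (SD, n = 3 each). The 6 genes that were not tested included Cav3, Cavin2 and Cavin3 and never exceeded 12 expected counts.

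In WTL against WT, 3 of the 10 tested genes of the list other than Cav1 and Cav2 were called up at a fold over 2 and none down, against 12.6% and 9.99% of all genes. Pacsin2, Pacsin1 and Dnm2 were lower and past the adjusted p but under the fold cutoff (log2 -0.33, -0.40 and -0.28). Those called up were Cavin1, Ehd4 and Ehd1, the last an ATPase of endosomal recycling, which rose by 2.09 (SE 0.10, adjusted p = 3.3e-10, edgeR). Ehd1 stood at 14909 ± 1576 normalized counts in WTL and 13736 ± 1911 in KOL, which overlapped, and in KO against WT it gave -0.30 (SE 0.10, adjusted p = 0.025, edgeR), under the 1.3-fold cutoff.

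**Figure D4:**
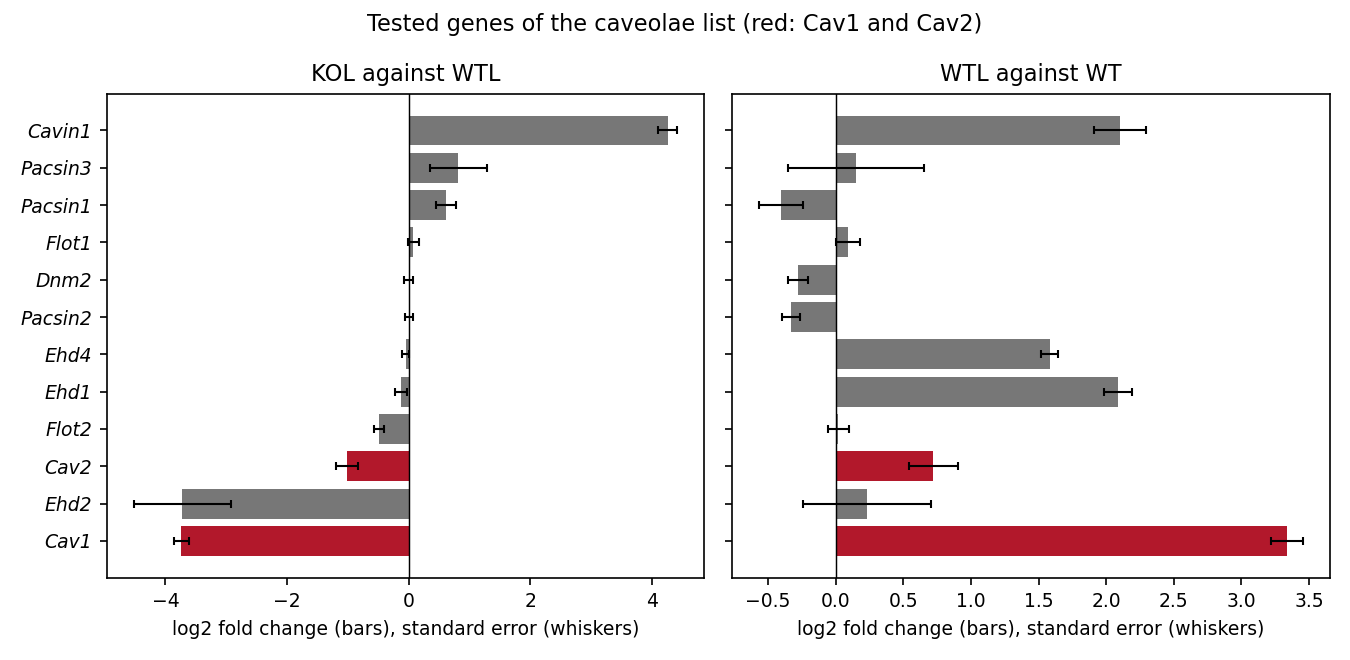
Log2 fold changes (bars) with standard errors (whiskers) of the 12 tested caveola genes in KOL against WTL and in WTL against WT, with Cav1 and Cav2 in red. In the left panel Cavin1 stands at 4.27 and Cav1 at -3.74, and in the right panel both are above 0, at 2.10 and 3.33.

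Of the 23 genes of HGF and MET signalling, 20 were tested, with 2 called up and 5 down in KOL against WTL, against 12.5% of all genes in each direction, and a median of -0.06, beside -0.03 for all genes. Apart from Met, the falls with the largest values were Plxnb2, a plexin that pairs with MET, by 2.12 (SE 0.14, adjusted p = 2.7e-08, edgeR) and Hgfac, a protease that activates HGF, by 1.47 (SE 0.11, adjusted p = 5.7e-08). Spint2, an inhibitor of HGF-activating proteases, rose by 0.68 (SE 0.17, adjusted p = 0.0049). Hgf, the ligand of MET, averaged 83.8 normalized counts in WT, 58.3 in KO, 50.9 in WTL and 28.4 in KOL, all under the level required for naming by the rule. In WTL against WT, 3 were called up and 1 down at the 2-fold cutoff, against 12.6% and 9.99% of all genes, the rises being Met, Cd44, a co-receptor of MET, by 1.16 (SE 0.06, adjusted p = 1.0e-09), and St14, a membrane protease that activates HGF, by 1.19 (SE 0.10, adjusted p = 1.1e-07).

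Of the 15 actin capping genes, 13 were tested, with 4 called up and none down in KOL against WTL, against 12.5% of all genes in each direction, and a median of -0.006, beside -0.03 for all genes. Carmil1, which removes capping protein from filament ends, rose by 1.11 (SE 0.14, adjusted p = 1.8e-05, edgeR), and Rcsd1, which binds capping protein, by 0.63 (SE 0.10, adjusted p = 1.2e-04). Both had also risen with LPS in WT cells, by 1.36 (SE 0.16, adjusted p = 5.3e-06) and 2.06 (SE 0.10, adjusted p = 4.4e-10). Carmil2 and Carmil3, also called up, averaged only 23.7 and 16.2 normalized counts over the 12 libraries. Past the test but under the 1.5-fold cutoff, Capg fell by 0.58 (SE 0.06, adjusted p = 4.3e-06, edgeR) and Twf2 rose by 0.42 (SE 0.11, adjusted p = 0.0057). The other alpha subunit, Capza1, differed by -0.35 in KOL against WTL, close to the -0.34 of Capza2, and Capzb, the beta subunit, by 0.05.

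Of the 18 genes of the testin, zyxin and Ena/VASP list, 16 were tested, with 2 called up and 2 down in KOL against WTL, against 12.5% of all genes in each direction, and a median of -0.10, beside -0.03 for all genes. Vasp, an actin polymerase at cell edges, fell by 0.79 (SE 0.10, adjusted p = 1.7e-05, edgeR), while Zyx, the gene of zyxin, differed by 0.11 and did not pass. In WTL against WT, none was called up and 2 were called down at the 2-fold cutoff, under which Vasp (0.91, adjusted p = 2.1e-06), Tes and others rose past the adjusted p alone. St7l, the only paralogue in the St7 list, was at 204 normalized counts in WT, 139 in WTL, 214 in KO and 145 in KOL. With LPS it fell by 0.56 on the log2 scale in WT cells (adjusted p = 0.0015, edgeR) and by 0.56 in KO cells (adjusted p = 0.0012). Both falls were under the 2-fold cutoff, and St7l was called in none of the comparisons.

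The genes whose profile over the 12 libraries was most like that of Cav1 lay on other chromosomes. They were Agfg1 (Pearson r 0.996), the scavenger receptor gene Marco (0.996), the serpin gene Serpinb6b (0.996), the Argonaute gene Ago1 (0.995) and the formyl peptide receptor gene Fpr1 (0.993), among 9337 genes with a mean of at least 100 normalized counts. Marco, for example, averaged 1755 ± 93.2 normalized counts in WT, 7015 ± 486 in WTL, 151 ± 17.1 in KO and 1716 ± 189 in KOL. The 12 libraries are 4 groups of 3 with shared treatments and genotypes, so these coefficients are a description.

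For Cav1, near neighbours on the chromosome were not the nearest in profile. Cav2 ranked 716 of the 9337 genes by likeness to Cav1 (r 0.84), Met ranked 355 (r 0.90) and Tes ranked 3546 (r 0.38). Met and Capza2, which stand next to each other among the 6, were their most alike pair (r 0.992). Each ranked within the first 14 genes of the other. For Met the most alike genes were Clec4e, Rasgrp1 and Ell2 (r from 0.999 to 0.998), and for Capza2 they were Gk, Taf7 and Snx10 (0.996 to 0.993). Tes was most like Crebl2, C9orf72 and Pik3r1 (0.996 to 0.994), Cav2 most like Pik3ca, Pank3 and Abcc5 (0.984 to 0.977), and St7 most like Tmem167, Cd52 and Rab1a (0.954 to 0.943).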

How the data were processed

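RNA was sequenced from 12 BMDC libraries, whose groups and replicate numbers were taken from their labels. Reads trimmed by the authors with Trim Galore were mapped to mm10 by STAR (2.5.1 in the submitters' processing notes), and RSEM quantified 55335 genes. The authors deposited expected counts, estimates that need not be whole, and TPM, which RSEM scales to a fixed sum. The methods name a poly(A) stranded kit and the labels rRNA depletion, and the strand setting of RSEM is not given in the sources used here. The deposited FPKM was not used.

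Expected counts were rounded and TMM-normalized in edgeR 4.0.16 (R 4.3.3), filterByExpr kept 14008 genes, and glmQLFTest was applied to all 12 libraries without covariates, with Benjamini-Hochberg adjustment over all genes. The LPS fits of Cav1 were planned as tests and are given as descriptions. Fold cutoffs followed the study's (2 for LPS, 1.3 for KO against WT, 1.5 for KOL against WTL). Alternatives used DESeq2 1.42.0, limma 3.58.1 on log2(TPM + 1) or log2(TPM + 0.1), other scalings and filters, the replicate number as a block, and each library left out. The fit was tested on simulated counts of KOL against WTL (13685 genes). By adjusted p and direction, without the fold cutoff, 39 of 50 changes of 1.5-fold and 50 of 50 of 2-fold were recovered. Of the unchanged genes, 12 were past the adjusted p. The simulation gave every gene and group the same spread, unlike these data, so recovery in these data was not measured.

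The 6 genes, the gene lists and the naming rule were chosen with earlier results of these data known. Named were the 6 genes, every tested gene of the window, per list at most 3 rises and 3 falls called in KOL against WTL or WTL against WT whose mean was 100 normalized counts or more, and the 5 (Cav1) or 3 genes most alike. Ehd2, Ehd4, Pacsin2, Dnm2, Hgf, Capza1, Capzb, Capg, Twf2, Carmil2, Carmil3, Zyx and St7l fall outside this rule and were named after their values were seen. Motifs were read in RefSeq promoters, in which all 6 genes were found. Replicate pairs differed by 1.66 to 1.86 in chi-square per degree of freedom in KO and by 3.14 to 4.45 in WT. The values were 8.07 to 28.5 in KOL and 28.3 to 77.7 in WTL. All were counted as separate libraries, though these values do not show separate cultures. The fit of all 12 libraries pools the spread of a gene over the groups. For Cav2 its SE was 0.18 in both genotype comparisons. With the 6 libraries of each comparison alone it was 0.049 in KO against WT and 0.23 in KOL against WTL.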

Additional observations from a re-analysis of the deposited data

Results flagged for a closer look

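The LPS response differed between genotypes by the edgeR interaction test for 5 genes named above that are not among the 6. Tfec, near Cav1, differed by -0.07 with LPS in WT cells, which did not pass, and fell by 0.86 in KO cells, so that the response in KO minus that in WT was -0.79 on the log2 scale (SE 0.14, adjusted p = 0.0016, 0.017 at most under the alternatives). Its group means were 1033, 983, 1675 and 923 normalized counts in WT, WTL, KO and KOL, and the WTL and KOL libraries overlapped. Cavin1 rose with LPS by 2.10 in WT cells and by 1.13 in KO cells, a difference of -0.97 (SE 0.23, adjusted p = 0.011), which was -0.39 and did not pass on log2(TPM + 1) (adjusted p = 0.23), and was -0.83 (adjusted p = 0.058) without WT replicate 3. Hgfac differed by -0.14 in WT cells and rose by 0.81 in KO cells, a difference of 0.95 (SE 0.15, adjusted p = 8.0e-04, 0.013 at most under the alternatives).

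Plxnb2 differed by -0.57 (SE 0.18, adjusted p = 0.049) and Vasp by -0.43 (SE 0.14, adjusted p = 0.049), and each lost the call under 14 of 19 alternatives, with adjusted p of up to 0.93 and 0.26. Groups of 3 libraries are too small for a test of single outlying libraries.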

How the results depend on the processing

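The counts of called genes were 3 in KOL against WTL, 2 in WTL against WT and 3 in KOL against KO in every fit that left out 1 library and under the other alternatives, with 2 exceptions, and each LPS count includes Cav1, whose LPS values are descriptions. Without the fold cutoff they were 5, 6 and 5, and on TPM Tes left the KOL against KO count. Leaving out single libraries moved Cav1 from -3.84 to -3.59 in KOL against WTL, from 3.19 to 3.43 in WTL against WT, from 5.29 to 5.62 in KOL against KO and from -6.02 to -5.70 in KO against WT. Cav1 in KO against WT was -5.06 on log2(TPM + 1) and -4.88 with TPM scaled to a common median, a setting chosen after seeing the data, as were all alternatives for genes other than the 6. The LPS difference of Cav2 in KO cells reversed to -0.15 on log2(TPM + 1) and -0.16 on log2(TPM + 0.1), and the difference of Plxnb2 between genotypes in LPS response reversed to 0.062 on log2(TPM + 1).

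With the replicate number as a block, the counts of called genes stayed at 3, 2 and 3, St7 in KOL against WTL reached an adjusted p of 0.046 (log2 0.23), and Vasp lost its interaction call (adjusted p = 0.075). Deviations of same-numbered libraries from their group means were little related (correlations from -0.29 to 0.11). Replicates of WT and of KO differed little, which leaves little for such a correlation to show. Whether the numbers pair libraries is therefore not settled. Without WTL replicate 2, whose ribosomal RNA share was 5.17% against at most 1.18% elsewhere, no count of called genes changed. Cav1 rested on 19 to 28 counts per KO library, which limits its fold there.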
